A study of Panax notoginseng with 2 samples.

Results

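Compact genes with new splice forms were examined in root tissue of the medicinal herb Panax notoginseng, which is related to ginseng. They were chosen as loci whose listed transcript carried the Cufflinks class code j and whose length, measured from the first to the last base with introns included, was under 3000 bases. Code j marks an assembled transcript that shares splicing with a reference gene but has another exon and intron structure. Of 147111 loci in the series, 16118 carried code j and 2419 of these were compact. The other 13699 are called longer loci here. The compact loci ran from 367 to 2998 bases, with a median of 2173, and lay on 2173 scaffolds and contigs. The median of the longer loci was 7311 bases.

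One RNA library came from roots of plants treated with 5 µM cadmium, a toxic heavy metal, and 1 from roots of control plants that received no treatment. The labels give field cultivation for both, and neither the age of the plants nor the length of exposure. The study asks which root transcripts differ under cadmium. With 1 library per group there was no replicate check, no test could be run, and treatment and library cannot be told apart. The labelled root tissue could not be checked against marker genes, because the files pair no locus with a gene name or function.

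Splicing removes introns from a primary transcript and joins the exons. A gene can be spliced in several ways, through another donor or acceptor site, a skipped exon, a retained intron or another first or last exon. In plants retained introns and shifted splice sites are common forms, and many of them are not translated in full. Root cells are the first to meet soil cadmium, and they restrict it by uptake control, chelation and storage in vacuoles. Which compact loci belong to such functions is not known from these files.

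Levels are in FPKM (fragments per kilobase of transcript, scaled to the fragments of the library), 1 value per locus and library, as the authors deposited them. This value sums all forms of a locus, so the share of a new form in it is unknown. Loci with an FPKM of at least 1 in at least 1 library were compared. A locus called higher had a log2((cadmium FPKM + 1)/(control FPKM + 1)) of at least 1, and a locus called lower had one of at most -1. The added 1 makes the ratios of low loci too small. Unspliced reference loci of 500 bases or more showed that 1 FPKM stood for 11.9 fragments per effective kilobase in the cadmium library and 19.8 in the control library, after 208 and 204 bases lost at the transcript ends. A scaling by the authors' software may be included in these numbers. As transcripts are no longer than their locus, these steps give the most fragments that can stand behind a value. Such numbers cover counting error only.

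The exon structure was known for 14 of the 2419 compact loci, those among the 1693 loci of the deposited exon file. All 14 lie on contigs rather than scaffolds, as do 14.6% of compact loci. Of the 16 class j loci among the 1693, 14 were compact, against 15% of class j loci in the series. The 14 were thus not drawn evenly from the compact loci, and their structures may not be typical. These 14 loci held 31 transcripts, of which 24 were new splice forms, 6 had the reference structure and 1 matched no reference gene. A reference form was listed in 6 loci, and 8 loci listed new forms alone, 4 of them as a single transcript. New forms had 2 to 8 exons, with a median of 3.5. Their spliced length ran from 354 to 1501 bases, with a median of 925.5, against 198 to 756 bases and a median of 406.5 for the 6 reference forms. Of 1217 loci in that file whose listed transcript had the reference structure, 1 also held a new form. Positions are those of the authors' scaffolds and contigs, whose build is not given in the sources used here.

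In the 6 loci that list both kinds, all 10 new forms began upstream of the reference form, by 30 to 1158 bases, and 8 of the 10 also ended downstream of it. All 6 loci are on the plus strand. A whole intron was shared with the reference form by 6 of the new forms. The other 4 shared 1 end of an intron, so that the donor or the acceptor site was kept and the opposite site differed. A reference intron lay inside an exon of the new form, as a retained intron does, in 2 of the 10.

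**Figure D1:**
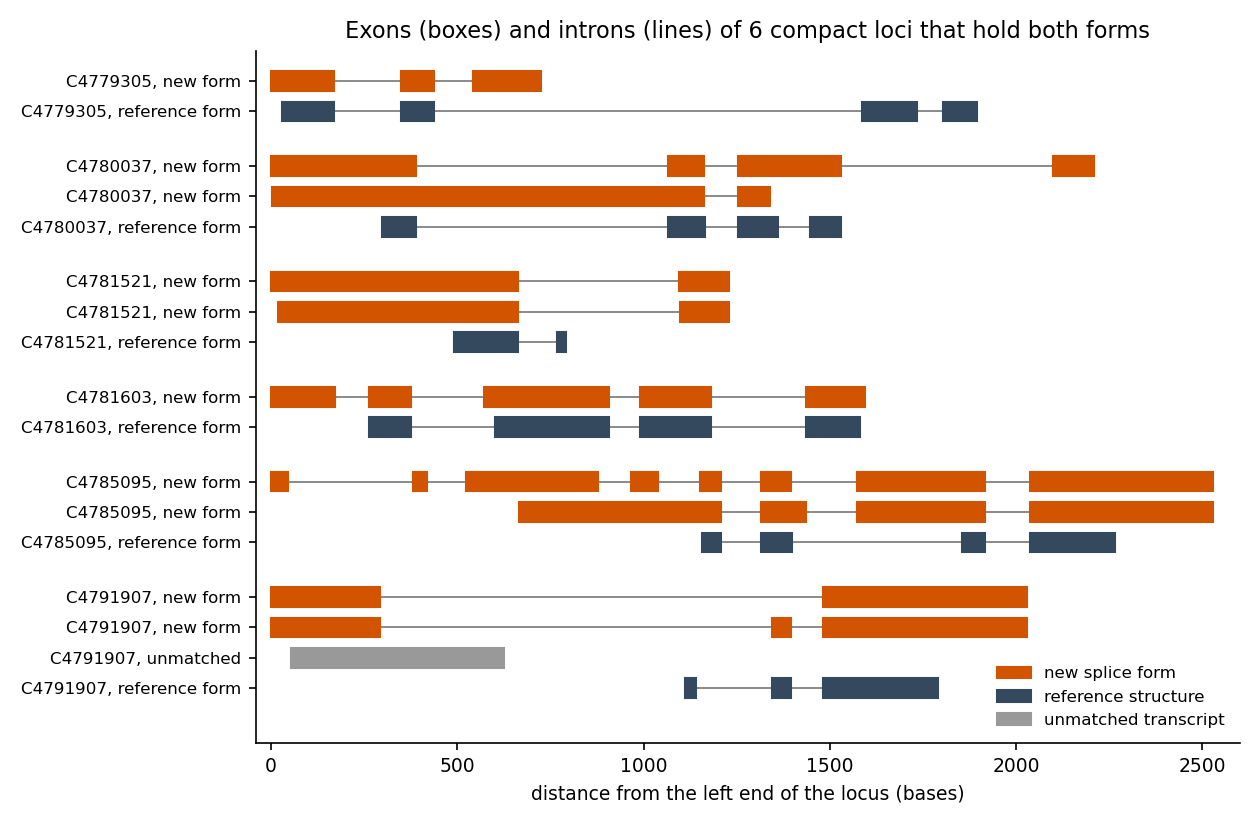
Exon maps of the 6 compact loci that list both a new and a reference form, as distance in bases from the left end of each locus. Boxes are exons and lines are introns. The 10 new forms (orange) start to the left of the reference form (dark) of the same locus by 30 to 1158 bases. The transcript that matched no reference gene is grey.

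The new form at C4781603:1042-2636 kept the reference gene's later introns and differed at the start. It had 5 exons where the reference form had 4, began 262 bases further upstream with an added first exon, and shared 2 whole introns. In 1 further intron the end next to the third exon was shifted by 28 bases. The locus stood at 2.76 FPKM in the cadmium library and 5.94 FPKM in the control library. With a log2 ratio of -0.88 it did not reach the 2-fold size.

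The locus at C4780037:34-2241 showed the retained intron. One of its new forms, with 2 exons, runs without a break through the 677-base intron that the reference form and the other new form, with 4 exons, splice out. The other new form runs through a different intron of the reference form, of 85 bases. Both new forms used a splice site shifted by 4 bases from that of the reference form. The level was below 1 FPKM in both libraries, 0.081 in cadmium and 0.44 in control, so the locus was not compared.

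At C4791907:82-2109 the first exon of the new forms lay 1110 or 1111 bases upstream of the reference start. The shorter new form has 2 exons and skips the 51-base middle exon that the other new form, with 3 exons, and the reference form carry. Cadmium gave 14.7 FPKM here and control 2.25 FPKM, a log2 ratio of 2.27. At C4781521:1413-2641 both new forms replaced the last exon of the reference form. They use a splice acceptor 329 and 332 bases further downstream, so that the 2 acceptors lie 3 bases apart. That locus stood at 15.8 FPKM in cadmium and 6.33 FPKM in control, a log2 ratio of 1.20.

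At C4779305:13-1907 the new form ended inside the 1150-base intron of the reference form. Its last exon, of 184 bases, is an alternative last exon that the reference form does not have. In all it had 3 exons and 439 bases, where the reference form had 4 exons and 462 bases. The level was 5.05 FPKM in cadmium and 0.43 FPKM in control, a log2 ratio of 2.08. The locus at C4785095:465-2993 held the new form with the most exons, 8, beside a new form with 4. The form with 4 exons runs through 2 introns, of 88 and 113 bases, that the form with 8 exons removes. This locus was alike in both libraries, at 1.31 FPKM in cadmium and 1.13 FPKM in control.

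Among loci with new forms alone, that at C4780031:237-2367 listed 3 forms on the minus strand. They differ by a 79-base exon, present in 1 form and skipped in the other 2, and by a splice site shifted by 47 bases. Cadmium gave 8.79 FPKM here and control 0.16 FPKM, a log2 ratio of 3.08. At C4746001:9-990 the 2 new forms differ by 40 bases at a single splice site, and the locus was alike in both libraries, at 5.11 FPKM in cadmium and 5.20 FPKM in control. At C4778279:111-1613 the 3 new forms, each with 5 exons, differ by splice sites shifted by 300 and by 7 bases, and the level was listed at 0 in cadmium and stood at 0.44 FPKM in control. At C4778751:75-1968 1 of the 2 new forms keeps a stretch of 342 bases that the other removes as an intron, with 0.87 FPKM in cadmium and 2.18 FPKM in control. The single form at C4779667:1151-2230 had an intron of 33 bases, the shortest among the transcripts of these 14 loci, and was listed at 0 in both libraries.

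The 4 loci with a single listed transcript included C4703203:195-750, whose 3 exons add up to 354 bases, with 55.4 FPKM in cadmium and 107 FPKM in control. Fragment numbers could be read for 2 compact loci with a single known form, since their values came out as whole fragments within 0.05 in both libraries. The locus at C4798601:2151-3475, whose spliced form is 523 bases long, had 51 cadmium fragments and 2 control fragments. At equal depth this was 43.1-fold higher in cadmium, with an exact 95% conditional binomial (Clopper-Pearson) interval of 11.3 to 365 that covers counting error only. The locus at C4776651:108-1847 had 11 cadmium and 14 control fragments, a ratio of 1.31 with an interval of 0.540 to 3.12, and a difference was not detectable at this depth. Values under 1 FPKM thus rested on 14 fragments or fewer at these loci.

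Most compact loci had a level above 0, but the share listed at 0 in both libraries was larger than among longer loci. The minimum for comparison, 1 FPKM in either library, was met by 1793 of 2419 compact loci (74.1%) and 13069 of 13699 longer loci (95.4%). Both libraries listed 0 for 473 compact loci (19.6%) and 213 longer loci (1.55%). Over all 147111 loci of the series, 23% met the minimum and 69.5% were listed at 0 in both, far more than among compact loci. A further 153 compact loci were not at 0 in both but stayed under 1 FPKM in each. A listed 0 can mean that no fragment was found or that the estimate failed. From which reads a new form listed at 0 in both libraries was assembled cannot be told from these values.

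Of the 473 compact loci at 0 in both libraries, 430 held a single transcript by an estimate from transcript numbering. Transcripts are numbered in order along the annotation, and the step from 1 listed number to the next gives an estimate of how many a locus holds. In the exon file this estimate was right for 12 of the 14 compact loci, among them the 4 with a single transcript. The exceptions, C4746001:9-990 and C4778279:111-1613, were estimated at 1 transcript but held 2 and 3. The longer class j loci of that file, C4796949:1-3353 and C4797891:1-3155, were estimated at 2 and 4 transcripts but held 3 and 6. Among the 37 loci of every class with several transcripts in that file, the estimate was right for 23 and too low for 12. The numbers of single-transcript loci can therefore be too high. By this estimate 807 compact loci (33.4%) held 1 transcript, against 1589 longer loci (11.6%), and the mean was 2.13 against 3.81. Of the 807 compact single-transcript loci 53.3% were at 0 in both libraries. With 2 transcripts this share was 3.95%, with 3 it was 1.17%, and none of the 284 with 4 or more was at 0 in both.

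Expressed compact loci spread over a wider range of levels than longer ones. Among loci at 1 FPKM or more, the cadmium library had a median of 15.1 FPKM over 1633 compact loci (interquartile range 4.56 to 50.1) and of 14.0 over 12642 longer loci (6.37 to 31.8). In the control library the medians were 15.4 FPKM over 1597 compact loci (5.60 to 52.1) and 13.2 over 12495 longer loci (5.92 to 28.5). The medians lay close together and their order depended on the minimum level. Among loci above 0 the compact median was below that of longer loci in both libraries, 0.878 times it in cadmium and 0.969 times it in control.

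The upper end of the range was richer in compact loci. A level of 100 FPKM in either library was met by 363 of the 1793 compact loci compared (20.2%) and by 1104 of the 13069 longer ones (8.45%). Over all 33904 loci compared, 8.78% met this level. Among loci at 1 FPKM or more in cadmium, 25 of 1633 compact and 23 of 12642 longer loci reached 1000 FPKM. In control 22 of 1597 compact and 21 of 12495 longer loci did. Over all loci of the series they were 162 of 27417 in cadmium and 184 of 30123 in control. Compact loci held 31.8% of the summed FPKM of class j loci in cadmium and 27.1% in control. Without the highest compact locus of each library these shares were 25.9% and 25.7%.

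The most abundant compact locus, at scaffold4612:99235-100118, stood at 56311 FPKM in the cadmium library and 10630 FPKM in the control library. It made up 25% of the compact sum in cadmium. Its 884 bases held an estimated 4 transcripts. The locus at scaffold8000:53389-55170 reached 15661 FPKM in cadmium and 1345 FPKM in control, an 11.6-fold ratio. The locus at scaffold14199:9559-11314 was at 9973 FPKM in cadmium and 2490 FPKM in control. All 3 were higher in cadmium.

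Other abundant compact loci differed by less than 2-fold. The locus at scaffold19059:44008-45125 stood at 13804 FPKM in the cadmium library and 10887 in the control library, where it was the highest compact locus and made up 7.03% of the compact sum. That at scaffold1794:117420-119541 stood at 3553 FPKM in cadmium and 2218 in control, and that at scaffold23977:39316-40738 at 2609 and 2333. A further one, at scaffold3884:19201-21114, was at 2345 FPKM in cadmium and 2887 in control.

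Of the 6 compact loci with the highest control level, 3 were far lower in cadmium. The locus at scaffold34005:128189-129484 was at 134 FPKM in cadmium and 7714 FPKM in control, 57.4-fold lower. The locus at C4936439:16549-17494 was listed at 0 in cadmium and stood at 4773 FPKM in control. The locus at C4945907:4419-5259 was at 27.3 FPKM in cadmium and 3030 FPKM in control. The 20 highest compact loci of each library held 58.3% of the compact sum in cadmium and 41.2% in control.

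Compact loci that differed between the libraries did so in both directions, and which direction was the more frequent depended on the scaling. Of the 1793 compared, 474 were higher in cadmium (26.4%), 461 were lower (25.7%) and 858 were neither. Over all 33904 loci compared, 20.6% were higher and 28.6% were lower. Over the longer loci the shares were 18.3% and 12.8%. The median log2 ratio of compact loci was 0.05, against 0.15 for longer loci and -0.07 for all loci. This median has no steady direction, since it was -0.01 for loci reaching 5 FPKM and -0.12 when the libraries were scaled to equal upper quartiles of loci above 0. That scaling left 412 compact loci higher and 508 lower, and scaling to equal upper quartiles of loci reaching 1 FPKM in either library left 528 higher and 426 lower.

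**Figure D2:**
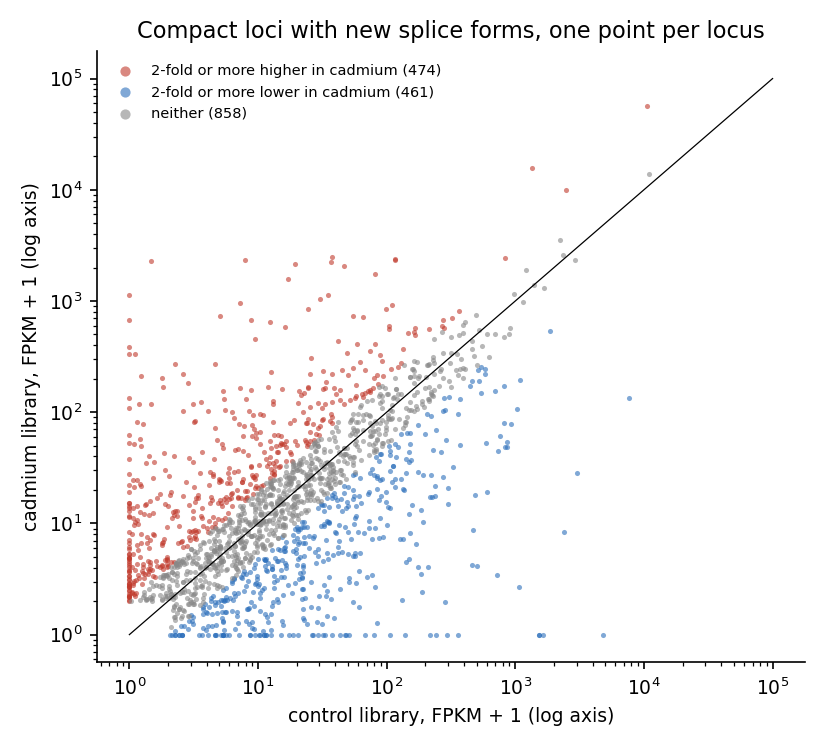
FPKM + 1 of the 1793 compared compact loci in the cadmium library (vertical, log axis) and the control library (horizontal, log axis), 1 point per locus. The diagonal marks equal levels. The 474 higher (red) and 461 lower (blue) loci lie on both sides of it, and points on the axes at 1 are listed at 0 in that library.

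The spread of the ratios set compact loci apart from longer ones more than their centre did. A size of 2-fold or more in either direction was reached by 52.1% of compact and 31.2% of longer loci, against 49.2% of all loci compared. At 4-fold the shares were 26.7% and 9.63%, against 22% of all loci. In single directions 233 compact loci were higher (13%) and 245 lower (13.7%), against 5.66% and 3.97% of longer loci and 7.86% and 14.1% of all loci. At 8-fold they were 14.6% and 3.94%, against 11.3% of all loci. In single directions 129 compact loci were higher (7.19%) and 132 lower (7.36%), against 2.3% and 1.64% of longer loci and 3.6% and 7.68% of all loci. The interquartile range of the log2 ratio ran from -1.05 to 1.06 in compact loci and from -0.48 to 0.74 in longer ones. The spread between replicate libraries was not measured, so how much of this width lies between plants or preparations is unknown. Loci are not replicates, and the difference between the 2 classes was not tested.

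The width narrowed steadily with locus length, with no step at the limit of 3000 bases. The share past 2-fold was 72.0% in the 82 compared loci of at least 500 and under 1000 bases, 59.9% in the next 500 bases, then 57.1%, 51.6% and, at 2500 bases and above, 45%. Beyond the limit it was 37.9% below 5000 bases, 32.4% below 10000 bases and 24.8% above. In the bin from 1000 up to but not including 1500 bases, 22.2% of the 212 compared were higher and 37.7% lower in cadmium. Their median log2 ratio was -0.30. The shares over all loci compared were 20.6% and 28.6%, also with more lower than higher. Which direction is the more frequent among compact loci depends on the scaling, and other scalings were not tried by length bin. In the other compact bins with more than 1 locus, the median lay between -0.002 and 0.11. The 1 compact locus under 500 bases stood at 201 FPKM in cadmium and 116 FPKM in control.

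**Figure D3:**
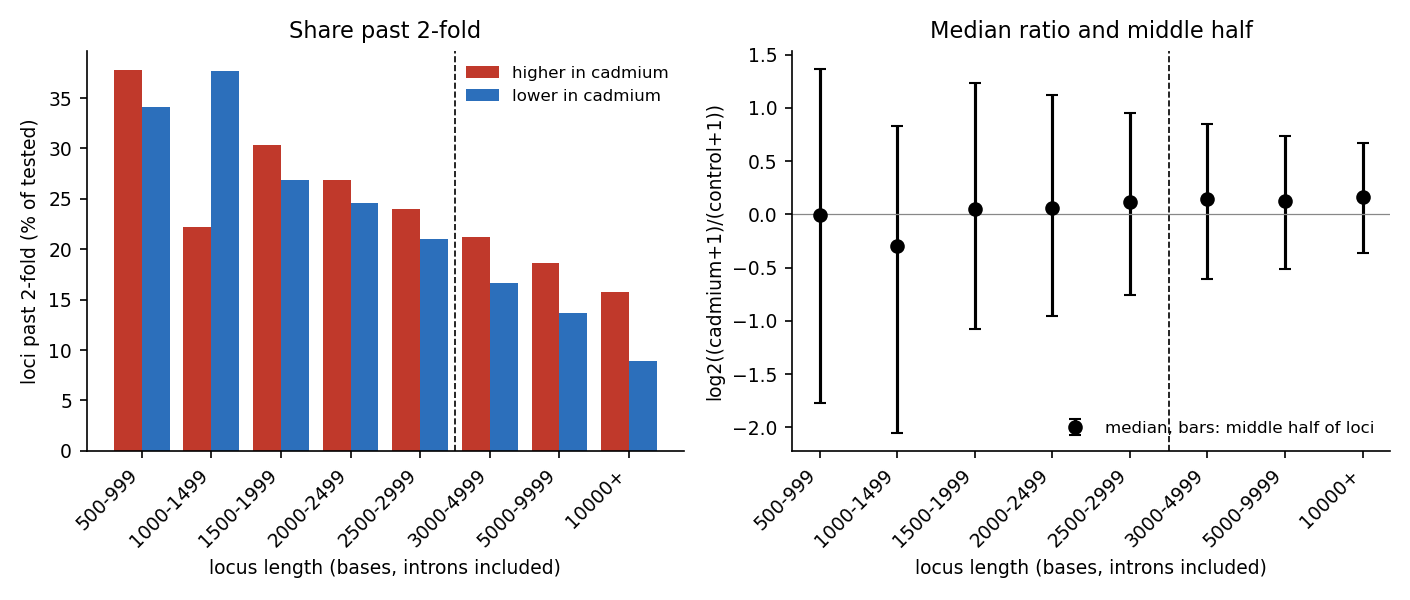
Class j loci by locus length in bases. The left panel shows the percentage of compared loci that were 2-fold or more higher (red) or lower (blue) in cadmium, and the right panel the median log2 ratio with bars over the interquartile range. The bin under 500 bases held 1 locus and is left out. The dashed line is the limit of 3000 bases, and the share past 2-fold falls from 72.0% in the shortest bin to 24.8% in the longest.

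In the values as deposited, more loci were higher than lower on both sides of the limit. Over all loci compared 20.6% were higher and 28.6% lower. The more frequent direction among compact loci changed with the scaling, so no direction is read from the counts at the limit. Among loci of the last 100 bases inside it, 36 of 154 compared were higher and 29 lower, with a median log2 ratio of 0.12. Among loci of the first 100 bases outside it, 39 of 138 were higher and 26 lower, with a median of 0.35. The longest compact loci, 6 of 2998 bases, included C4968653:77176-80173 with 16.4 FPKM in cadmium and 6.05 FPKM in control, and scaffold15072:177156-180153 with 2377 and 115 FPKM. The locus on scaffold15072 overlaps another locus. Just outside, scaffold9716:233251-236251 stood at 0.51 FPKM in cadmium and 0.20 FPKM in control, and C4942941:9267-12268 at 35.2 and 12.8 FPKM.

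The wider spread of compact loci was also seen among loci of like level. Among loci with a mean of more than 10 and up to 30 FPKM over the 2 libraries, 49.5% of 459 compact and 28.5% of 4693 longer loci were past 2-fold. Over 30 and up to 100 FPKM the shares were 57.0% of 337 and 35% of 2495. They were 51.8% of 166 and 45.4% of 632 over 100 and up to 300 FPKM, and 66.0% of 106 and 51.0% of 143 above that. A shorter transcript holds fewer fragments at the same FPKM, so bins of equal FPKM do not equal depth, and the part of depth in the difference was not tested. The bins use the mean of the same 2 libraries as the ratio, so the bins themselves are not set against each other.

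**Figure D4:**
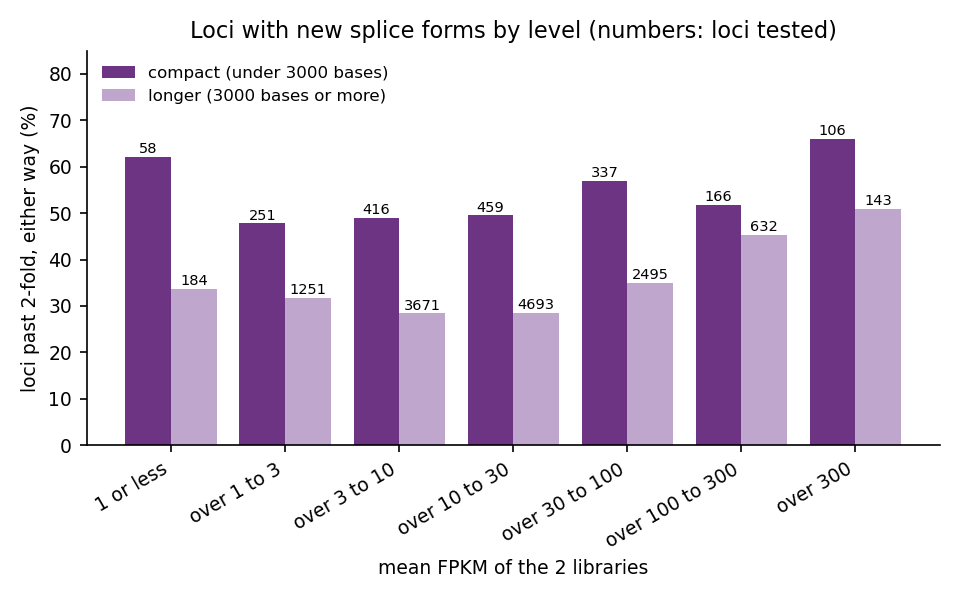
Percentage of class j loci past 2-fold in either direction, by mean FPKM of the 2 libraries, for compact loci (dark, left) and longer loci (light, right). Numbers over the bars are loci compared. The compact bar is the higher of each pair. At 1 FPKM or less the bars stand at 62.1% against 33.7%. They stand at 49.5% against 28.5% at over 10 to 30 FPKM, and at 51.8% against 45.4% at over 100 to 300 FPKM.

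The balance of higher and lower loci varied with the number of transcripts. Compact loci with an estimated 1 transcript were 20.6% higher and 27.8% lower in cadmium (291 compared), and those with 2 transcripts 26.2% higher and 29.3% lower (898 compared). Of the 323 compared with 3 transcripts 97 were higher and 72 lower (22.3%), and with 4 or more 29.2% were higher and 16.0% lower (281 compared). Longer loci were 17.8% higher and 14.8% lower with 1 transcript, 16.8% higher and 18.2% lower with 2, and 19.0% higher and 9.49% lower with 4 or more. Over all 33904 loci compared, 20.6% were higher and 28.6% lower, close to the shares of compact loci with 1 transcript. The median log2 ratio of those compact loci was 0.09, positive although more of them were lower. Which direction is the more frequent depends on the scaling, and other scalings were not tried by number of transcripts. Transcripts were assembled from sequencing reads, so their number is not independent of the levels. The median level in cadmium was 11.1 FPKM in compact loci with 1 transcript and 20.6 FPKM in those with 4 or more, and 11.7 and 18.4 FPKM in control.

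The largest ratios were sought among the 1085 compact loci that had 1 FPKM or more in each library and 10 or more in either. Loci were ranked by the log2 ratio with 1 added to each FPKM. Folds are of FPKM without the added 1, so their order can differ from the ranking. A locus not named can thus have a larger fold than one that is. Locus XLOC_058371, at scaffold18597:56655-58803, stood at 2354 FPKM in cadmium and 6.87 FPKM in control, 343-fold higher. At most 54338 cadmium and 265 control fragments can stand behind these values. This locus overlaps another one, and reads of overlapping loci cannot be told apart with certainty. Locus XLOC_043772, at scaffold15145:48958-50672, stood at 730 FPKM in cadmium and 4.09 FPKM in control, 178-fold higher.

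The next 6 in this ranking were 85.6-fold to 217-fold higher in FPKM. They included scaffold8896:117192-118839 with 955 FPKM in cadmium and 6.27 FPKM in control, and scaffold13833:77790-79295 with 270 and 1.24 FPKM. At scaffold21997:182847-185688 the values were 2129 FPKM in cadmium and 18.4 FPKM in control, and at scaffold2303:19260-21538 they were 1585 and 16.2 FPKM. The remaining 2 were C4955081:50851-53194, with 220 FPKM in cadmium and 1.59 FPKM in control, and scaffold12320:32018-33702, with 675 and 7.89 FPKM.

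A locus with a still larger ratio fell outside this set because its control level was under 1 FPKM, and is named after its values were seen. At C4938823:17340-19325 the cadmium library had 2279 FPKM and the control library 0.46 FPKM, where at most 16 control fragments can stand behind the value. Its log2 ratio of 10.60 was the highest among compact loci above 0 in both libraries.

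In the other direction, locus XLOC_036237, at scaffold13449:8096-9687, stood at 1.67 FPKM in cadmium and 1061 FPKM in control, 636-fold lower. At most 27 cadmium and 29195 control fragments can stand behind these values. Locus XLOC_130424, at scaffold6935:1350-4123, stood at 7.30 FPKM in cadmium and 2397 FPKM in control, 328-fold lower.

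The next 6 in this ranking were 111-fold to 297-fold lower in FPKM, and 1 of them is the C4945907 locus given above. At scaffold25274:79973-81957 the values were 2.41 FPKM in cadmium and 714 FPKM in control, and at scaffold16958:12383-14580 they were 3.15 and 505 FPKM. At scaffold6801:79043-80732 they were 3.21 FPKM in cadmium and 461 FPKM in control. The last 2 had lower control levels, with 1.44 and 186 FPKM at scaffold5806:36234-38517 and 1.03 and 131 FPKM at scaffold10459:28624-31412.

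**Figure D5:**
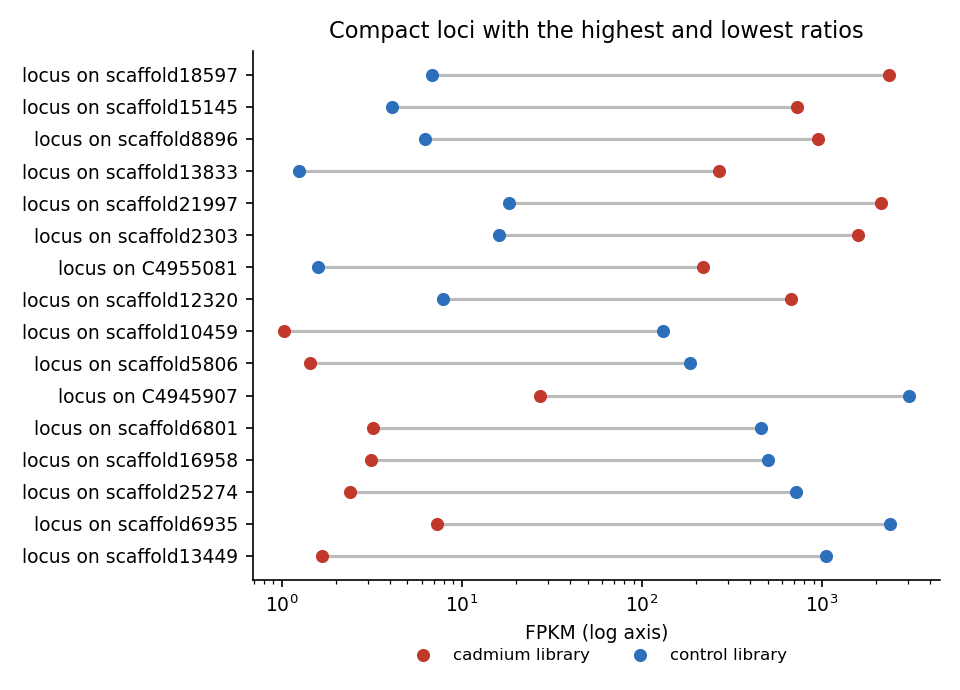
FPKM (log axis) in the cadmium library (red) and the control library (blue) of the 8 compact loci with the highest and the 8 with the lowest ratio among the 1085 that had 1 FPKM or more in each library and 10 or more in either. The ranking used the log2 ratio with 1 added to each FPKM, and folds are without it. The upper 8 were 85.6-fold to 343-fold higher in cadmium and the lower 8 were 111-fold to 636-fold lower.

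Compact loci listed at 0 in 1 library and above the minimum in the other were about equally frequent both ways, 59 at 0 in cadmium (3.29%) and 57 at 0 in control (3.18%). Among longer loci they were 54 (0.413%) and 86 (0.658%), and among all loci compared 4044 (11.9%) and 1328 (3.92%). The highest of those at 0 in control was scaffold29378:53559-54821, at 1133 FPKM in cadmium, followed by scaffold15630:12940-14834 at 680 FPKM. The next were scaffold7270:98930-101194 at 383 FPKM and scaffold1347:14258-16219 at 335 FPKM in cadmium. Of those at 0 in cadmium, the C4936439 locus led, and scaffold32306:14422-15815 followed at 1639 FPKM in control. Next came scaffold21257:15725-17186 at 1525 FPKM and scaffold911:129165-130695 at 1516 FPKM in control. No fold is given for these loci.

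Some well expressed compact loci had nearly the same level in both libraries. Of the 142 with at least 100 FPKM in both, the ratio nearest to equality was at scaffold24433:47459-49601, with 104.6 FPKM in each library. The locus at scaffold5278:18045-20039 stood at 1381 FPKM in cadmium and 1404 FPKM in control. At C4882147:2961-5278 the values were 205 FPKM in cadmium and 200.4 FPKM in control, and at scaffold2075:18421-20755 they were 114 and 109 FPKM.

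Compact loci seldom overlapped another locus, 56 of 2419 (2.32%) against 2283 of 13699 longer loci (16.7%) and 5.02% of all loci. Among longer loci this share was 5.7% under 5000 bases and 30.8% at 10000 bases or more. Compact loci lay on both strands, 1243 on plus and 1176 on minus. The exon listed first for each locus, the leftmost of its transcript, had a median of 301 bases in compact and 382 bases in longer loci. The reference genes of compact loci were also named for 39 antisense loci. In 27 of these pairs both partners were compared, and 16 antisense loci were higher and 4 lower in cadmium, with a median log2 ratio of 1.29 against 0.27 for their compact partners. Over all 587 antisense loci compared 35.8% were higher and 15% lower, and nothing particular to the partners of compact loci is read from these 27. Strandedness of the libraries is not given in the sources used here, so reads of the 2 partners cannot be told apart with certainty.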

How the data were processed

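One FPKM value per locus and library was deposited by the authors, and the submitters' processing notes name TopHat2 (version 2.0.13), Cufflinks (2.2.1) and Cuffnorm (2.2.1) without settings. The genome build is not given in the sources used here. A second deposited table gave the class code, and an exon file covering 1693 loci gave exon positions. Class j loci under 3000 bases were compared as log2((cadmium + 1)/(control + 1)), with a minimum of 1 FPKM in 1 library. No p-value was computed, since each group held 1 library. The FPKM step of unspliced reference loci was fitted; 98.4% of cadmium and 99.1% of control values were whole within 0.05. The calculations were tested on simulated data. Members, lists and the rule for named loci (ratio extremes, highest levels, zeros, ratios nearest 0, length limit) were chosen with earlier results of these data known. No gene family list could be matched, as no file pairs loci with gene names. Positions are 1-based. Alternatives changed the pseudocount, filter, scaling, fold and length limit. Python 3.11.15, numpy 2.4.6 and pandas 2.3.3 were used.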

Additional observations from a re-analysis of the deposited data

How the results depend on the processing

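No paired analysis was possible because both groups consist of a single library, and for the same reason none could be left out. Equal upper quartiles of loci above 0 or of loci at 1 FPKM in at least 1 library, the overlap restriction and the difference in percent past 2-fold were added after seeing the data. The compact median of 0.05 turned to -0.013 at 5 FPKM, -0.055 under 2000 bases and -0.12 with equal upper quartiles of loci above 0, and was 0.18 with those of loci at 1 FPKM in at least 1 library. These 2 scalings shifted all loci by -0.19 and 0.15 on the log2 scale. Compact minus longer medians differed by -0.098, and by -0.20 under 2000 bases. Counts moved by more than 1.5 times under 2000 bases (186 higher, 204 lower), under 4000 bases (847 higher, 766 lower) and at 4-fold (233 higher, 245 lower), where the limits themselves hold fewer or more loci. The percent past 2-fold was higher in compact than in longer loci by 21.0 points. This gap stayed positive, at 16.7 with a pseudocount of 5, 8.92 without a filter, 27.3 under 2000 bases, 16.2 under 4000 bases, 18.4 for loci above 0 in both libraries and 17.0 at 4-fold. The ratio of median levels, 1.08 in cadmium and 1.17 in control, was 1.39 and 1.41 at 5 FPKM or more, 0.878 and 0.969 for loci above 0, and 0.98 and 1.03 under 4000 bases. The other 55 of 78 values stayed within fixed limits. For counts the limit was 1.5 times the main value, either way. For medians, percents and ratios of levels it came from an interval over loci, which treats loci as independent. Loci are not replicates, so these limits describe size only and say nothing on reproducibility. What caused the other shifts was not tested. For spliced loci without known exons the fragments behind a value are bounded from above only.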

Other observations

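Of 60 neighbouring pairs of compared compact loci less than 5000 bases apart, both partners were past 2-fold in 18, with 9 pairs higher, 5 lower and 4 in opposite directions. Of all compact loci compared, 52.1% were past 2-fold, and nothing particular to neighbours is read from this count. The 3 pairs named were picked after their values were seen. The pair at scaffold1636:177053-179356 and scaffold1636:180328-182151 had 181 and 20.7 FPKM in cadmium, against 1.85 and 0.23 FPKM in control. At scaffold2035:25992-28022 the cadmium library had 18.3 FPKM and the control library was listed at 0, and at scaffold2035:29759-32295 the values were 80.4 FPKM in cadmium and 2.18 FPKM in control. The pair at scaffold29543:36036-38984 and scaffold29543:39138-39814 had 0.12 and 0.29 FPKM in cadmium, against 8.38 and 7.92 FPKM in control. Of the 4 scaffolds with at least 4 compared compact loci, 0 had 75% or more of them past 2-fold in 1 direction.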
